A study of Mus musculus with 6 samples.

Results

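The 10 genes described here encode the Smad proteins that carry transforming growth factor beta (TGF-beta) and bone morphogenetic protein (BMP) signals to the nucleus, and the Ski-type repressors that hold them in check. They are Smad1, Smad2, Smad3, Smad4, Smad5, Smad6, Smad7, Smad9, Ski and Skil. Open chromatin was read from ATAC-seq peak lists, in which a peak marks DNA that a transposase could cut and tag. A region belonged to a gene when it overlapped the gene body or 10 kb either side of it, and 48 of 49048 regions in the series did so. The genes were taken by family, with earlier results of these data known, and the regions by position.

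The cells were immortalised atrioventricular cushion mesenchymal cells of the mouse, the cell type from which heart valves and septa form, at passage 6. They came from an H-2Kb-tsA58 transgenic strain, which carries a temperature-sensitive viral T antigen, and both conditions share that transgene. For 48 h the medium held glucose at 5.5 mM, called normal glucose here, or at 25 mM, called high glucose, with 3 libraries of 54000 cells each per condition. All come from 1 immortalised line. Normal-glucose replicate 2 listed 66 peaks, none of them near a member, and did not enter. The 5 other lists held 22156 to 40350 peaks, the longest being normal-glucose replicate 3, so 2 normal-glucose and 3 high-glucose lists were compared. Nothing in the labels says that replicates were separate cultures, so a p-value here speaks of the spread among the libraries, and that spread may be technical. Of 12 cushion mesenchyme markers 8 had a region at a start site in all 5 lists, against 36.2% of all protein-coding genes. Vim, Sox9 and Tbx20 were among the 8, while Twist1, Postn, Pdgfra and Col1a1 had no such region. None of 8 endothelial and none of 8 cardiomyocyte markers had one. It was present for 2 of 6 epicardial markers, Wt1 and Upk3b, 1 of 6 blood markers, Spi1, and none of 5 epithelial markers.

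Receptors for TGF-beta and activin phosphorylate Smad2 and Smad3, and BMP receptors phosphorylate Smad1, Smad5 and Smad9. Each joins Smad4, the common partner, and the complexes bind DNA. Smad6 and Smad7 are inhibitory Smads that block receptors and are themselves induced by the pathway, and Ski and Skil (also called SnoN) bind Smad complexes and recruit corepressors. In the atrioventricular canal these signals drive the endocardium to form mesenchyme.

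Start sites of the family were open in both glucose conditions. Of the 48 regions, 0 were held by every high-glucose list and no normal-glucose list, against 0.167% of all regions in the series, and 1 was so with lists of equal length. The reverse, both normal-glucose lists and no high-glucose list, held for 2, against 3.73%, and for 0 at equal length. A region within 1 kb of a start was present in all 5 lists for 9 of the 10 genes, the exception being Smad9, against 36.2% of all protein-coding genes. Skil, Ski, Smad2, Smad3 and Smad4 stood high in every list, while Smad1 and Smad5 stood lower. Away from starts, Smad3, Smad6, Smad7 and Ski carried 30 of the 33 regions of the family, and 7 of those 30 were in all 5 lists, against 14.5% of all regions inside genes and 14.2% of those outside genes, both away from starts.

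The promoter sequences of 5 members are shown because the peaks at their starts lay at different places relative to the start, and because 1 of them holds a palindromic Smad site. They run from 250 bases before to 50 bases after the start (RefSeq, GRCm38.p6, the coordinates of mm10), and 6 of the 10 genes matched the table used, with 8 starts. Capitals mark bases covered by a peak in all 5 lists, and in Smad9 those covered in the 2 lists that had a peak. Smad3 lies on the minus strand at chr9:63757945-63758244, Smad6 on the minus strand at chr9:64022010-64022309, Smad1 on the minus strand at chr8:79399379-79399678, Smad5 on the plus strand at chr13:56702760-56703059 (the first of its 3 listed starts) and Smad9 on the plus strand at chr3:54755332-54755631.
Smad3: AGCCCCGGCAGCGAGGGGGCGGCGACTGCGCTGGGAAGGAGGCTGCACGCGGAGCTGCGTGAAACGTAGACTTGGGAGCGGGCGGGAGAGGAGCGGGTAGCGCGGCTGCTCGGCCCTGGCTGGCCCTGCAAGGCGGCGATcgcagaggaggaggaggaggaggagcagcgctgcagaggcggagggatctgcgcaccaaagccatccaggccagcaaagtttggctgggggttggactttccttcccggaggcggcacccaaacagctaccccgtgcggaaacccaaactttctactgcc
Smad6: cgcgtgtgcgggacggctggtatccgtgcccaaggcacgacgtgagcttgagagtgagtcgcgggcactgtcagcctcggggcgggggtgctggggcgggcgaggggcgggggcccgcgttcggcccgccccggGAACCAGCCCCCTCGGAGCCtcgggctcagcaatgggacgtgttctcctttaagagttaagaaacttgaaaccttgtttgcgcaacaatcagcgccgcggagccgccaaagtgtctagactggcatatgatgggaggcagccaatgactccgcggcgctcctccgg
Smad1: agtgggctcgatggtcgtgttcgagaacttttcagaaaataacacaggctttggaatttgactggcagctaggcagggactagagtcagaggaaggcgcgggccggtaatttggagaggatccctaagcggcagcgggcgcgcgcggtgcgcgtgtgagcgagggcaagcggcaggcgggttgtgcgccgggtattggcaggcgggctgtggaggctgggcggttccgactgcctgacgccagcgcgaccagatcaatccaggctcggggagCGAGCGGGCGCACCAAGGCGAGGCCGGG
Smad5: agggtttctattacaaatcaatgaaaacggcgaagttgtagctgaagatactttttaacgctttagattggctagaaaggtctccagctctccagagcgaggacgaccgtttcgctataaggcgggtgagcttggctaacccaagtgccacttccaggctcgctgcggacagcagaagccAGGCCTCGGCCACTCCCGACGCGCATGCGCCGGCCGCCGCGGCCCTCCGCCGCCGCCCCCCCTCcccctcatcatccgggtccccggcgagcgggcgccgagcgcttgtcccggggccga
Smad9: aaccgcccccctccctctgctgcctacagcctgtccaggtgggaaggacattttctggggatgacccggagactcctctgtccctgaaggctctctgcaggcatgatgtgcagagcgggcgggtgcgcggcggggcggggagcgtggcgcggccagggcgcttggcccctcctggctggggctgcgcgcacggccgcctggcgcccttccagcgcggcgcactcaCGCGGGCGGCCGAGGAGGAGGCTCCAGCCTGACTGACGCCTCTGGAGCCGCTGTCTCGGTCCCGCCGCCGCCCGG

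Positions are counted from the start base as 0. In Smad3 the shared stretch within the window was 140 bases long, from -250 to -111, and it reached the edge of the window, where the region did not end. In Smad5 it covered 64 bases, from -70 to -7, and in Smad6 20 bases, from -116 to -97. In Smad1 the 28 shared bases in the window lay after the start, from 22 to the window's edge at 49. Lengths that end at an edge cannot be compared with the others. In Smad1 4 of the 5 lists also had a peak over bases before the start, at -57 and -33, and high-glucose replicate 1 did not. The side given for Smad1 thus rests on that 1 list. In Smad6, too, 4 of the 5 lists had a peak over bases further before the start, at -171 and -125, and high-glucose replicate 1 did not. The bases shared by all 5 lists lay at different places in different genes, which need not hold for each list. All these windows are rich in G and C, from 63.0% in the first Smad5 window to 73.7% in Smad9, against a median of 56.3% over 21263 promoter windows of protein-coding genes. Ski was higher still, at 85.3%, and no list had a peak within that window of Ski.

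Letters known as sites for Smads and other factors were searched in these windows on both strands. The palindrome GTCTAGAC, a Smad-binding element, was found in Smad6 and in 0.226% of all promoter windows (48 of 21263). Smad6 is shown around the palindrome, which is in capitals, at chr9:64022036-64022083 on the minus strand.
Smad6 start: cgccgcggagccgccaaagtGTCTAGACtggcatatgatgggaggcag

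The palindrome spans the Smad6 start itself, with its first base at -4, and 1 of the 5 lists, high-glucose replicate 1, had a peak over it. The GC-rich Smad site GGCGCC was present in Smad5, Smad9 and Ski and in 15.3% of all windows. The Sp/Klf box GGGCGG was found in all 8 member windows and in 46.2% of all windows, with overlapping copies in the third Smad5 window. These 8 windows belong to 6 genes. The first 2 Smad5 windows overlap and share 1 match of this box, as well as their GGCGCC and CCAAT matches. All 8 are richer in G and C than the median window, and the share over all windows was not matched for that. CCAAT occurred in Smad1, Smad5 and Smad6, against 38.2% of all windows. The minimal Smad box CAGAC, found in 48.4% of all windows, was present only in the third Smad5 window. TGACTCA (AP-1), TGACGTCA (CRE) and GGAATG (TEAD), held by 4.66%, 2.23% and 13.6% of all windows, were not matched in these 8. These are matches of letters and are not shown to be bound.

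Each peak was placed within its own list as a percentile of the authors' -log10 p, so that 100 is the strongest peak of that list. Because the lists differ in length, these ranks cannot show a change from one library to another, and they serve to set the genes side by side within a list. Among members with a start region in all 5 lists the median percentile in the weakest list was 81.1, and over the 7918 protein-coding genes with such a region it was 67.4. For Smad2, Smad4, Smad7 and Skil, which had no entry in the promoter table used, the window was set at both gene ends, and distances are given from the end that carried the region in all 5 lists.

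**Figure D1:**
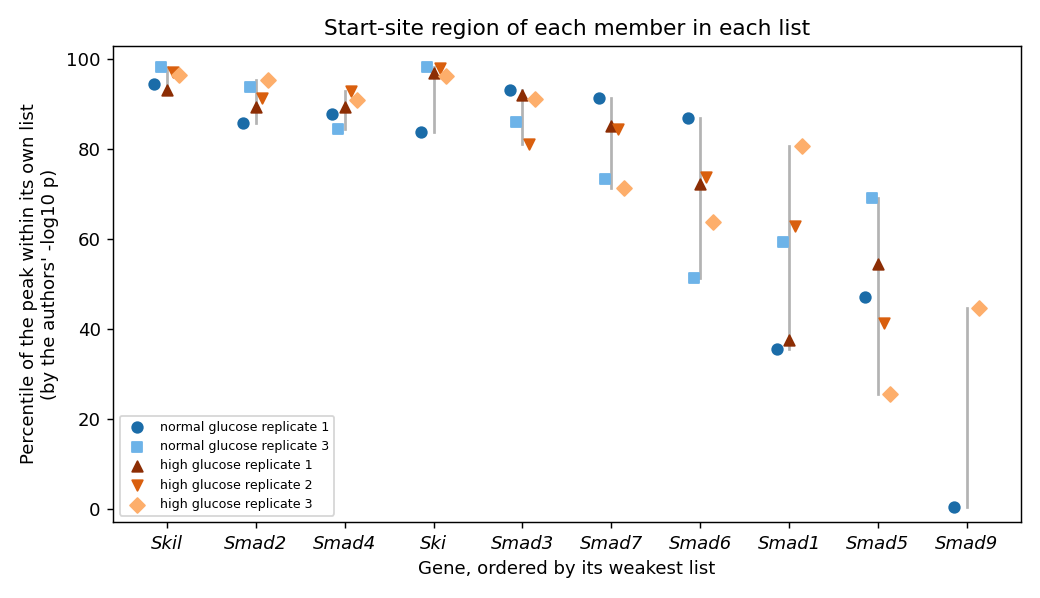
Percentile of the start-site peak within each list (vertical axis, 0 to 100), for each member (horizontal axis), with 1 point per list and a grey line from the lowest to the highest list. Genes are ordered by their weakest list, from Skil at 93.2 to Smad5 at 25.6, and Smad9 at the right had a start peak in 2 lists only. Smad6 had 2 start regions in all 5 lists, and its points are those of the region 846 bp before the start.

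The TGF-beta and activin transducers Smad2 and Smad3 and the common partner Smad4 had strong start regions. At Smad2 the region (chromosome 18, 76241149 to 76241913) ranked at percentiles of 85.8 and 93.9 in normal glucose (replicates 1 and 3, in that order here and below). In high-glucose replicates 1, 2 and 3 it stood at 89.4, 91.4 and 95.4. It was the widest region of the family at 765 bp, began 59 bp inside the gene end, and every list split it into 2 or 3 peaks. At Smad3 the region (chromosome 9, 63757919 to 63758326) reached percentiles of 93.3 and 86.1 in normal glucose, and 92.2, 81.1 and 91.2 in high glucose. Its summits fell between -252 and -203 bp in all 5 lists, a spread of 49 bp. At Smad4 the region (chromosome 18, 73703704 to 73704116) stood at 87.9 and 84.4 in normal glucose and at 89.3, 93.0 and 90.9 in high glucose. It overlapped a neighbouring annotated gene, 4930578L24Rik, and was the sole region within 10 kb of Smad4 in any list. At Smad2 and Smad3 the conditions overlapped. At Smad4 all high-glucose values were above both normal-glucose ones, the nearest being 89.3 and 87.9.

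The BMP transducers ranked lower. At Smad1 the region (chromosome 8, 79399091 to 79399610) had percentiles of 35.6 and 59.4 in normal glucose and of 37.5, 63.0 and 80.7 in high glucose. Its summit lay at 38 and -36 bp in normal glucose and at 271, -13 and -58 bp in high glucose. The spread of 329 bp thus came from high-glucose replicate 1. At Smad5 the region (chromosome 13, 56702883 to 56703289) lay over the first 2 of 3 listed starts, at 47.2 and 69.1 in normal glucose and 54.6, 41.2 and 25.6 in high glucose. The third Smad5 start had a peak in high-glucose replicate 2 alone, at the 2.46 percentile of that list. Smad9 had a peak over its start (chromosome 3, 54755488 to 54755647) in normal-glucose replicate 1 at the 0.289 percentile and in high-glucose replicate 3 at the 44.7 percentile, and in no other list. Within each of the 5 lists the weakest of Smad2, Smad3 and Smad4 stood above the stronger of Smad1 and Smad5. The closest approach was in high-glucose replicate 3, with 90.9 for Smad4 against 80.7 for Smad1.

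The inhibitory Smads had several regions around their starts. Smad6 had 2 in all 5 lists. The one over the start (chromosome 9, 64021923 to 64022312) stood at 69.6 and 87.9 in normal glucose and at 36.3, 82.4 and 39.6 in high glucose. Its strongest summit lay at -128 and -130 bp in normal glucose and at -144 bp in high-glucose replicate 2, but after the start, at 53 and 69 bp, in high-glucose replicates 1 and 3. The other (chromosome 9, 64022905 to 64023248), 846 bp before the start, stood at 87.1 and 51.3 in normal glucose and 72.3, 73.7 and 63.9 in high glucose. In the order of strength these 2 regions were exchanged between lists: the upstream one was the stronger in normal-glucose replicate 1 and in high-glucose replicates 1 and 3. Smad7 had 1 region in all 5 lists (chromosome 18, 75366524 to 75366728), 637 bp outside the gene end and overlapping the annotated gene Gm20544. That region stood at 91.5 and 73.5 in normal glucose and 85.1, 84.5 and 71.4 in high glucose. A region over the gene end itself (chromosome 18, 75367277 to 75367418) was listed in normal-glucose replicate 3 and high-glucose replicates 2 and 3, at 53.6, 75.0 and 59.3.

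The corepressor genes Ski and Skil carried the strongest 2 start regions of the family in 4 of the 5 lists. In normal-glucose replicate 1 Skil was the strongest, but Ski stood below Smad2, Smad3, Smad4, Smad6 and Smad7. Skil is itself a target of TGF-beta signals, which makes it part of a feedback loop. Its region (chromosome 3, 31094540 to 31095176) stood at 94.6 and 98.3 in normal glucose and 93.2, 97.3 and 96.6 in high glucose, and it was the only region within 10 kb of Skil. The summits of all 5 lists fell within 7 bp of each other, between -420 and -413 bp from the gene end. At Ski the region (chromosome 4, 155223097 to 155223502) lay 562 bp before the listed start and stood at 98.2 in normal-glucose replicate 3 and at 97.1, 98.1 and 96.2 in high glucose. Normal-glucose replicate 1 was lower, at 83.8, and both conditions overlapped at the top. By the authors' fold enrichment the Ski peak was lowest, at 10.1, in normal-glucose replicate 1 and highest, at 19.7, in high-glucose replicate 2, and the Skil peak ranged from 13.2 to 17.2. At Skil, too, the conditions overlapped.

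Along the order of weakest lists, neighbouring genes were not set apart: the ranges over lists of each gene overlapped that of the next, from Skil through Smad2, Smad4, Ski, Smad3, Smad7, Smad6 and Smad1 to Smad5. Smad6 entered this order by its region 846 bp before the start, whereas the region over its start ranged from 36.3 to 87.9. The ends of the order did not overlap, with 93.2 to 98.3 for Skil and 25.6 to 69.1 for Smad5. Percentiles are capped at 100, so their spread over lists is small for strong peaks by construction and was not compared between genes. By the authors' fold enrichment Ski ranged over lists from 10.1 to 19.7, Smad1 from 5.87 to 10.4 and Smad5 from 5.42 to 8.79.

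Most open regions of the family lay inside the genes, and 6 of those 27 were shared by all 5 lists. Of 48 regions 15 were at a start, 27 inside a gene and 6 in the flanks. All 5 lists held 10, 6 and 2 of these, 18 in total (37.5%, against 25.1% of all regions in the series). In the series 48.8% of 15332 regions at a start and 14.5% of 16998 regions elsewhere inside genes were held by all 5 lists. In 1 list alone stood 10 of the 48 (39.7% of all regions), of which 6 were in normal-glucose replicate 3, 3 in high-glucose replicate 2 and 1 in normal-glucose replicate 1. All 10 genes had some peak in their window in every list, against 53.3% of protein-coding genes, although the members' windows are longer, with a median of 84.7 kb against 37.2 kb. The annotation used gives gene ends but not exons, so exons and introns were not told apart.

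**Figure D2:**
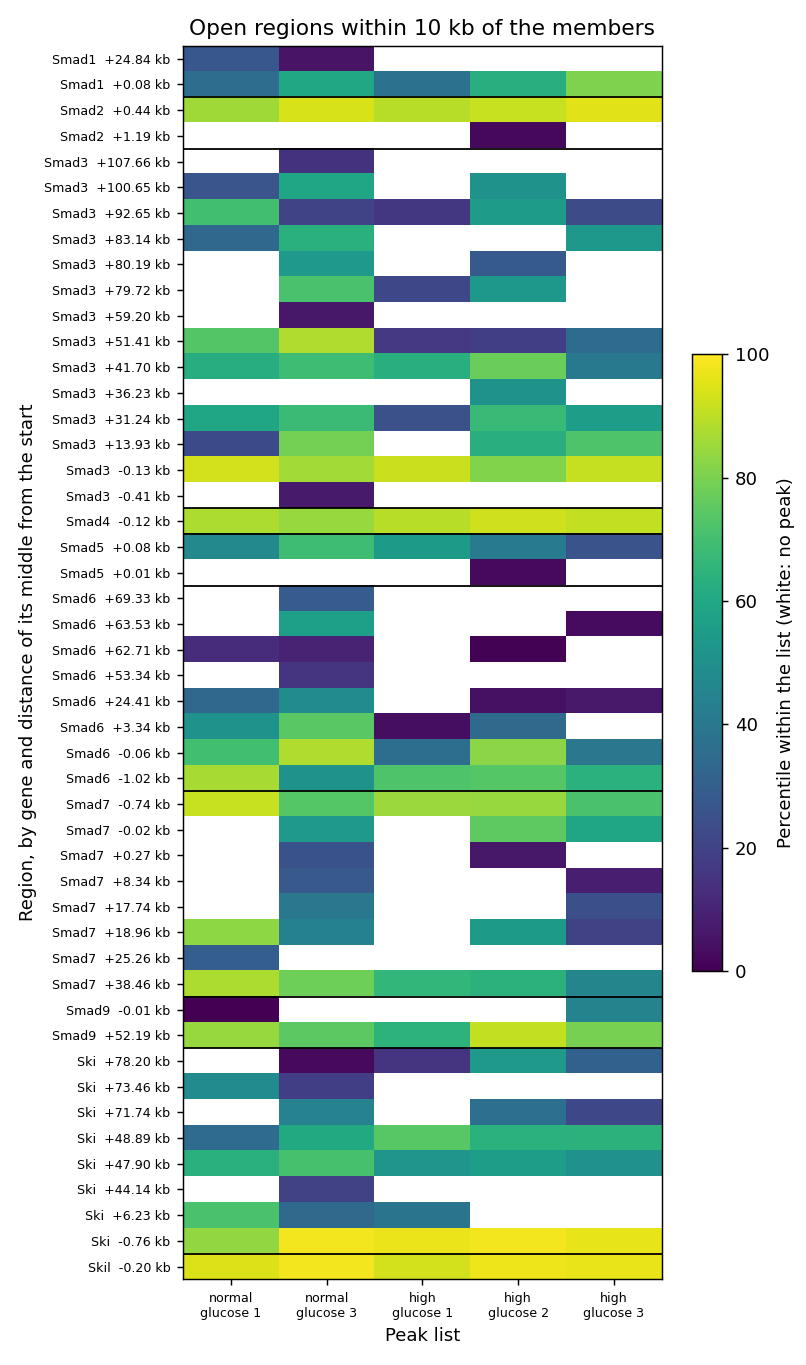
Percentile within its own list (colour, 0 to 100, white where the list had no peak) of each of the 48 regions (rows, by gene and distance of the middle from the start in kb) in the 5 lists (columns). The 18 rows filled throughout include 10 start regions.

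Smad3 had 14 regions, a number reached by 0.676% of protein-coding genes, or 10.7 per 100 kb of window, a density reached by 12.0% of them. Inside the gene 12 regions were spread over its 111229 bp, and 4 of them were held by all 5 lists, 31.2, 41.7, 51.4 and 92.6 kb after the start. The one strongest in its weakest list, 41.7 kb after the start (chromosome 9, 63716154 to 63716428), stood at 62.5 and 69.1 in normal glucose and at 62.5, 77.6 and 40.5 in high glucose. The region at 51.4 kb (chromosome 9, 63706463 to 63706707) stood at 73.3 and 88.2 in both normal-glucose lists and at 16.7, 18.5 and 35.0 in high glucose. Here the conditions did not overlap. The fold enrichment was 8.62 and 13.1 in normal against 4.99, 5.15 and 5.97 in high glucose. That region was singled out after its values were seen and was not tested. At the other 4 Smad3 regions in all 5 lists the conditions overlapped, and the 13.9 kb region was absent from high-glucose replicate 1 alone.

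Smad7 was the densest member, with 16.5 regions per 100 kb, a density that 3.43% of protein-coding genes reached. Of its 8 regions 2 were in all 5 lists. The second lay 9737 bp beyond the far gene end (chromosome 18, 75405672 to 75405975), at 87.7 and 77.8 in normal glucose and at 66.2, 64.4 and 45.6 in high glucose. Both normal-glucose values were above those of high glucose there. Inside Smad7 a region 9464 bp from the far end (chromosome 18, 75386184 to 75386471) was missing in high-glucose replicate 1 and stood at 83.1, 43.8, 54.4 and 19.6 in the other lists. High-glucose replicate 1 held only 2 of the 8 Smad7 regions, the fewest of any list, against 4 and 7 in normal-glucose replicates 1 and 3 and 5 and 6 in high-glucose replicates 2 and 3.

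Smad6 had 8 regions, 5 of them inside the gene and none of those 5 in all 5 lists. The one 3.34 kb after the start was listed at 51.1 and 74.3 in normal glucose and at 3.71 and 34.6 in high-glucose replicates 1 and 2. Normal-glucose replicate 3 held all 8, and 2 of them, 53.3 and 69.3 kb after the start, were in that list alone. Ski also had 8 regions, with a pair inside the gene in all 5 lists, 47.9 and 48.9 kb after the start. The first of the pair (chromosome 4, 155174517 to 155174748) stood at 63.5 and 71.1 in normal glucose and at 52.0, 55.6 and 50.7 in high glucose. The second (chromosome 4, 155173520 to 155173770) went the other way, at 34.9 and 60.7 in normal glucose and 74.2, 63.9 and 64.3 in high glucose. The second was also singled out after its values were seen. Over all 18 member regions in all 5 lists, both normal-glucose ranks were above every high-glucose rank at 3, the regions named in Smad3, Smad7 and Ski, against 21.8% of such regions in the series. The reverse held at 2, the Smad4 start and the second of the Ski pair, against 3.88%, and 13 overlapped. These ranks come from lists of unequal length, the part of length in them was not tested, and no test was made.

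**Figure D3:**
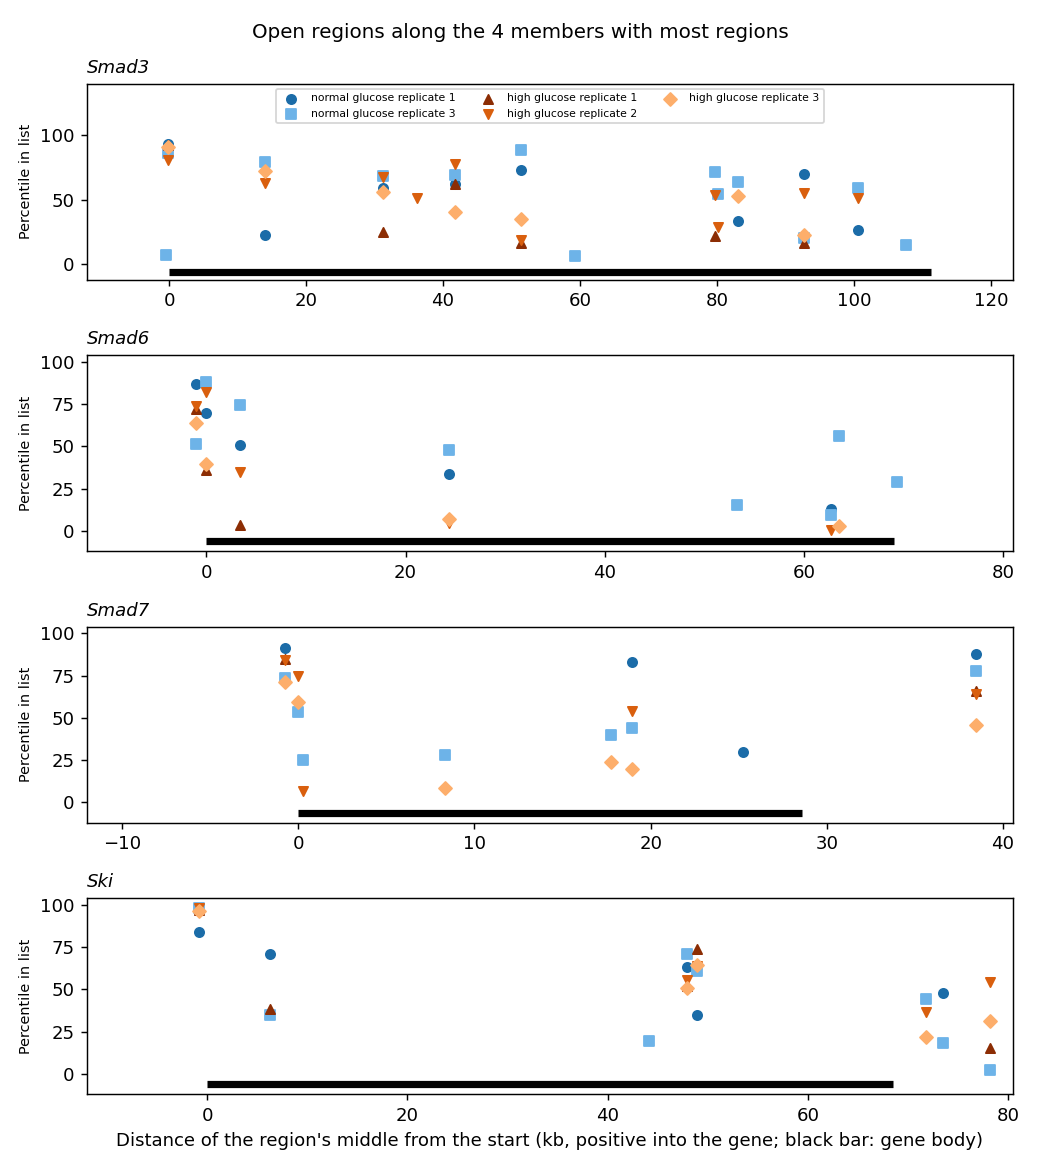
Regions along Smad3, Smad6, Smad7 and Ski: distance of each region's middle from the start in kb (horizontal axis) and percentile within the list (vertical axis), with 1 point per list that held it and the gene body as a black bar. The strongest start region of each gene carries points of all 5 lists, whereas many regions inside the genes carry 1 to 4.

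The remaining members had 1 or 2 regions. Smad1, Smad2, Smad5 and Smad9 had 2 each, and Smad4 and Skil 1 each, against a median of 2 over all protein-coding genes. Per 100 kb of window the median was 3.19 regions over the 10 members and 3.38 over all protein-coding genes. The second Smad9 region (chromosome 3, 54807458 to 54808078) lay beyond the far end of the gene and over the end of Rfxap, which encodes part of a complex that regulates class II histocompatibility genes. It was in all 5 lists, at 84.5 and 74.9 in normal glucose and at 64.6, 90.7 and 79.5 in high glucose. Smad9 therefore counted as open within 10 kb in every list through a region at a neighbouring gene. Smad2 had a second region in high-glucose replicate 2 alone, at the 2.30 percentile.

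Presence near the family did not differ detectably between glucose conditions. Lists of normal-glucose replicates 1 and 3 held 30 and 43 of the 48 regions, and those of high-glucose replicates 1, 2 and 3 held 22, 33 and 29. The conditions overlapped, at 36.5 ± 9.19 (SD, n = 2) in normal and 28.0 ± 5.57 (SD, n = 3) in high glucose. That difference of -8.5 regions had p = 0.4 (exact permutation test, two-sided, smallest possible p 0.2), a design that cannot pass 0.05. With every list held to the length of the shortest, 22149 nuclear peaks, the lists held 29, 26, 22, 28 and 29 in the same order, and the difference was -1.17 (p = 1, exact permutation test). Without normal-glucose replicate 3 it was -1.33 and without normal-glucose replicate 1 it was -15. Per 1000 listed peaks the sign turned, with 1.15 ± 0.121 regions in normal (SD, n = 2) and 1.20 ± 0.179 in high glucose (SD, n = 3), a difference of 0.0473 (p = 0.8, exact permutation test).

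**Figure D4:**
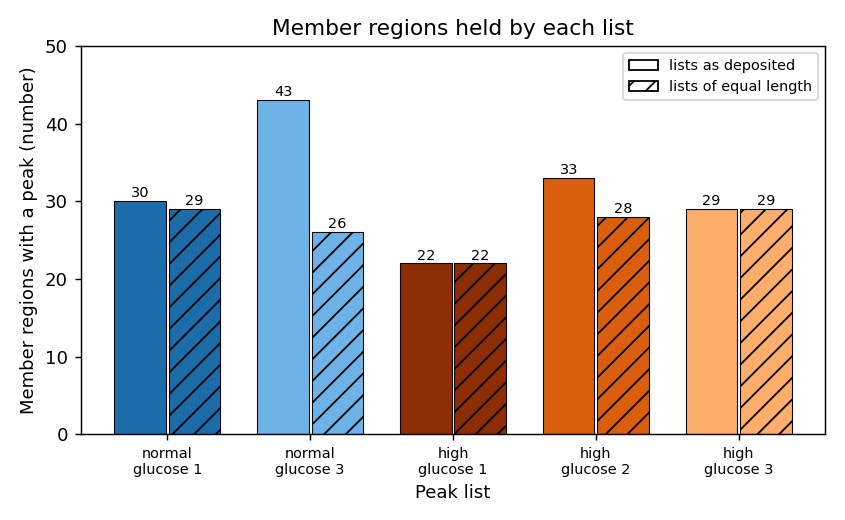
Number of the members' regions with a peak in each list (vertical axis, from 0), for the lists as deposited (plain bars) and held to equal length (hatched bars). Normal-glucose replicate 3 stands at 43 as deposited and at 26 at equal length, within the 22 to 29 of the other lists.

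Regions held by every list of 1 condition and none of the other were few. There were 0 for high glucose (0.167% of all regions in the series) and 2 of 48 for normal glucose (4.17%, close to the 3.73% of all regions). The first was 24.8 kb inside Smad1 (chromosome 8, 79374473 to 79374708), at percentiles of 27.2 and 5.41 in normal glucose. The second was in the flank of Ski, 73.5 kb from its start and beyond its far end (chromosome 4, 155148999 to 155149159), at 48.1 and 18.6. Both were weak in at least 1 of the lists that held them. Genes with such a region in their window made up 7.53% of protein-coding genes for normal glucose and 0.42% for high glucose. At equal list length neither remained in both normal-glucose lists, so that 0 were specific to normal glucose, against 1.62% of regions at that length. A region 78.2 kb from the Ski start (chromosome 4, 155144219 to 155144459) became specific to high glucose there, 1 against 0.956% of regions, and 17 of 40 were in all 5 lists, against 30.1%. It overlaps the neighbouring gene Morn1. With lists as deposited its percentiles were 15.5, 54.3 and 31.1 in high glucose and 2.38 in normal-glucose replicate 3, the peak that equal length removed. Without normal-glucose replicate 3 the count for high glucose was likewise 1, and without normal-glucose replicate 1 the count for normal glucose was 8, and without high-glucose replicate 2 it was 4.

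Other genes of the pathway were read the same way from 6 gene lists with 95 genes in all. A start region in all 5 lists was present for 13 of 15 genes of Smad and Ski turnover, 11 of 14 receptors and 14 of 20 cofactors, against 36.2% of protein-coding genes. It was present for 11 of 20 Smad-dependent target genes, 5 of 12 genes listed as other brakes on the pathway and 4 of 14 ligands. The lowest share among the 6 gene lists was that of the ligands. Among genes with such a start region alone, the median percentile in the weakest list was 42.0 for the 4 ligands and 53.0 to 64.2 for the other gene lists. These were under the 81.1 of the 9 members with such a region. The strongest start among the other brakes was that of Bambi, a decoy receptor and feedback inhibitor, whose start region stood at or above the 98.4 percentile in every list. The strongest in the other gene lists were Ctdsp1, a phosphatase that acts on Smads, at 96.7, the target Hey1 at 94.3, the receptor Tgfbr1 at 93.4, the cofactor Foxh1 at 93.1 and the activin subunit Inhba at 65.3.

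A region of normal glucose only was found within 10 kb of 8 of the 95 genes, close to the share of 7.53% among protein-coding genes. They were Wwp2 and Usp9x, enzymes of the ubiquitin system, and the cofactors Foxh1, Crebbp and Zeb2. The others were Fstl1 and Ltbp1, both from the list named other brakes, and the collagen target Col3a1. The region at Foxh1 was the strongest of these in its weaker list, at percentiles of 39.2 and 42.6, and that at Usp9x the weakest, at 0.229 and 5.17. In normal-glucose replicate 3, the longest list, all 8 regions stood at or below the 44.4 percentile. They were read from lists as deposited and were not tested at equal list length, where no member region stayed specific to normal glucose. A region of high glucose only was found at 1 gene, the activin-type receptor Acvr1c (0.42% of protein-coding genes), 42584 bp from its start, at 32.1, 10.7 and 54.3 in high-glucose replicates 1, 2 and 3. Each of the 6 gene lists thus held at most 3 genes with such a region.

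Likeness to the members was measured among the 95 pathway genes, as the mean absolute difference over the 5 lists of the strongest peak within 10 kb. Skil was closest to Foxh1 (0.743 percentile points) and Hey1 (1.51), and Ski to Tgfbr1 (2.63) and Stub1 (2.80), which encodes a ubiquitin ligase. Smad4 was closest to Hdac1 (2.35) and Atoh8 (3.78), and Smad3 to Atoh8 (4.06) and Smurf1 (4.43). For Smad2 these were Smurf1 (2.998), a ubiquitin ligase for Smads, and Tgfbr2 (3.79), the type II TGF-beta receptor. Smad7 was closest to Snai1 (3.15) and Sin3a (3.35), and Smad6 to Ltbp1 (4.64) and Col1a1 (5.08). Smad9, through the region at Rfxap, was closest to Acvr1b (4.06) and Cdkn1a (4.52). The nearest genes were farther off for Smad5, with Snw1 (5.93) and Snai2 (12.3), and for Smad1, with Lemd3 (8.31) and Fst (8.87). Genes with a strong peak in all lists lie close together on this measure by its construction.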

How the data were processed

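The series holds ATAC-seq peak lists of 6 libraries, 1 list per library. Per the submitters' processing notes, which give no roles or settings, the build was mm10 and the tools were MACS2 2.1.0, Bowtie 1.0.0, Picard 1.90, SAMtools 0.1.19, cutadapt 1.0, DiffBind 1.12.3, FastQC and edgeR. A shift of reads for the transposase and the handling of duplicates are not given in the sources used here. Per peak, the authors' deposited lists give a score, a fold enrichment ratio, the -log10 of p and of q, and a summit offset (the unit other). The lowest -log10 q was 1.30. The lists hold no counts, so depth is unknown.

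Groups came from the titles. Lists with at least 1000 peaks entered. Nuclear peaks overlapping by 1 bp were merged into regions, checked with bedtools and on simulated data. Genes were 21887 protein-coding RefSeq genes of GRCm38.p6. Members and gene lists were chosen with earlier results of these data known. All members were named, with their start region, the strongest other region in all 5 lists and each region of 1 condition only. Of the pathway lists, the gene strongest at its start and up to 4 genes with a region of 1 condition were named. Alternatives were -log10 q of at least 5, equal list length, other windows and overlaps, all 6 lists, each library left out and same-numbered pairs. Python 3.11.15, numpy 2.4.6, pandas 2.3.3 and matplotlib 3.10.9 were used.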

Additional observations from a re-analysis of the deposited data

How the results depend on the processing

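With all 6 lists the difference in regions per library turned from -8.5 to 3.67 (p = 0.9, exact permutation test), and no region was in all lists (0 in place of 18, and 0 of 10 genes at their start), because the sixth list held no peak near a member. Per 1000 listed peaks it turned to 0.0473. The other settings kept its sign, and leaving out 1 library gave -15 to -1.33. The replicate block, with libraries 1 and 3 as pairs, gave -11 (p = 0.5, exact permutation test, the smallest for 2 pairs). Same-numbered libraries showed correlations of -0.0140 and 0.0144 in their deviations over all regions. With 2 normal-glucose lists the values mirror each other, as in -0.0140 and 0.0140 against high-glucose replicate 1. The check thus cannot decide whether the numbers pair the libraries.

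The count of regions specific to normal glucose was 2 as deposited. It was 1 at a -log10 q of at least 5 and within gene bodies alone, 0 at equal length and with all 6 lists, and 4 with 50 kb either side, and leaving out 1 library gave 3 to 8. For high glucose the count of 0 became 1 at equal length, and ranged from 0 to 1 with 1 library left out. With 50 kb either side the total rose to 99 regions, 32 of them in all 5 lists. Start regions in all lists were found for 7 genes at the stricter q and in the window of 250 bp before to 50 bp after, and for 9 in the other settings with 5 lists or with 1 library left out. Reads per library are unknown, and a deeper library lists weaker sites, so absence from a list does not show closed DNA.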
